A study of Mus musculus with 16 samples.

Results

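The cornified envelope genes of the epidermal differentiation complex were taken as the protein-coding mouse genes on chromosome 3 whose symbols begin with Lce, Sprr, Flg, Rptn, Hrnr, Tchh or Crnn, or are Lor, Ivl, Crct1, Kprp or Smcp, and which had at least 10 counts over all libraries. Of 48 genes with such names, 46 met the minimum, among 50600 genes in the count table and 22155 that met the same minimum. Sprr3 had no count and Lce3a had 6, so neither was tested. The 46 members comprised 14 Lce1, 5 Lce3, 1 Lce6, 11 Sprr2 and 3 other Sprr genes, 7 S100-fused type genes (Flg, Flg2, Hrnr, Rptn, Tchh, Tchhl1 and Crnn) and 5 single genes (Lor, Ivl, Crct1, Kprp and Smcp).

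RNA was sequenced from epidermal cells of the footpad of female mice that had received a purified diet poor in ligands of the aryl hydrocarbon receptor (AhR-poor diet, labelled SYNTH) or the same diet with 200 ppm indole-3-carbinol (I3C diet), a plant compound that gives rise to AhR ligands. Feeding began at 5 weeks of age and lasted 3 weeks. Papain, a plant cysteine protease used as a model allergen, was injected into the footpad at 50 µg in 50 µl, or vehicle (PBS) was injected, and cells were collected 6 hr later from 4 mice per group. All 4 groups thus shared the purified diet, the injection and the 6 hr interval. According to the study's methods, each diet had its own cage, so diet and cage cannot be told apart. The 16 libraries held between 22500821 and 51844375 counts, so that 3 counts corresponded to 0.0569 to 0.130 CPM (counts per 1000000 counts of the scaled library). The labelled cell type was checked on markers, and the summed level of 6 suprabasal keratinocyte genes (Krt1, Krt10, Krt2, Krt9, Dsg1a and Dsc1) was between 24391 and 65544 CPM in every library.

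The cornified envelope is the insoluble protein shell that replaces the plasma membrane of keratinocytes as they reach the surface of the skin. Involucrin and other early components are laid down first, loricrin and small proline-rich (SPRR) proteins are then cross-linked onto them by transglutaminases, and filaggrin-type proteins aggregate keratin filaments inside the cell. The genes of these proteins lie side by side in the epidermal differentiation complex, and several SPRR2 and LCE3 genes are known from injured or inflamed epidermis.

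Since the members lie side by side, the sequence just upstream of their start sites was read to show what members with different responses held. The 200 bases before the annotated start are printed for 3 Sprr2 genes and Sprr1a, which had higher levels with papain on both diets, for Lce3c, which did so from another family, and for Lor, which did not pass the test. The sequences are from RefSeq on GRCm38.p6, 5′ to 3′ in the direction of transcription, and capitals mark TGANTCA (the AP-1 motif), ATTTGCAT (the octamer) and TATAAA (the TATA box). Sprr2h lies at chr3:92385485-92385684, plus strand, Sprr2i at chr3:92407791-92407990, plus strand, Sprr2d at chr3:92338940-92339139, plus strand, Sprr1a at chr3:92485882-92486081, minus strand, Lce3c at chr3:92944286-92944485, plus strand, and Lor at chr3:92083143-92083342, minus strand.
Sprr2h: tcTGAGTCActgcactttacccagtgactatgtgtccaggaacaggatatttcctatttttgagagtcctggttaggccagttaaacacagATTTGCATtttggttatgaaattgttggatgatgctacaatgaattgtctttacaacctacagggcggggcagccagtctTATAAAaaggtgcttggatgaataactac
Sprr2i: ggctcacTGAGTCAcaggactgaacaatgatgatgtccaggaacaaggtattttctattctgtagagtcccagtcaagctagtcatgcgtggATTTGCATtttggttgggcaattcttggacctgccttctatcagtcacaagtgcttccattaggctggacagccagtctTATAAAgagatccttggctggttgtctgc
Sprr2d: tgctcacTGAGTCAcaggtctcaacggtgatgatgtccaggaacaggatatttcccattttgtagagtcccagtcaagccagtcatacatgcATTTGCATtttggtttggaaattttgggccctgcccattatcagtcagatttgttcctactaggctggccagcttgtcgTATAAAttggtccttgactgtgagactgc
Sprr1a: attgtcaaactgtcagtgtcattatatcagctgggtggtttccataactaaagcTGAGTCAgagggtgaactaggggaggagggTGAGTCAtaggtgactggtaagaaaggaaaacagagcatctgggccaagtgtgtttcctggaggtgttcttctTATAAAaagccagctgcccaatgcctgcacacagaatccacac
Lce3c: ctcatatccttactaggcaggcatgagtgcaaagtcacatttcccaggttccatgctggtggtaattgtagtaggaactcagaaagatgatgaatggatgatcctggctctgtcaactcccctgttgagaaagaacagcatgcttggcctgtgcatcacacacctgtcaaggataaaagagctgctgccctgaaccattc
Lor: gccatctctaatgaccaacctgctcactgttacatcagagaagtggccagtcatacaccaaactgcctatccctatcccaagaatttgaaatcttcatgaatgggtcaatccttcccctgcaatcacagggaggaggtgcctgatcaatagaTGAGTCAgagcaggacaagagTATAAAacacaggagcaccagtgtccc

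In the 3 printed Sprr2 stretches an AP-1 motif, an octamer and a TATA box stood in the same order. Sprr1a held a pair of AP-1 motifs and a TATA box without an octamer, Lor held 1 AP-1 motif and a TATA box, and Lce3c held none of the 3. A RefSeq window from 250 bases before to 50 bases after the start was found for 42 of the 46 members, and 10 motifs were searched in it on both strands. The AP-1 motif was present in 16 of the 42 windows and in 7.81% of all 32851 promoters. It was found in 7 Sprr2 genes (Sprr2b, Sprr2d, Sprr2e, Sprr2f, Sprr2h, Sprr2i and Sprr2k), in Sprr1a and Sprr1b, in Lor and Ivl, in 5 S100-fused genes and in no Lce gene. The octamer was present in the same 7 Sprr2 windows and in no other member, against 1.74% of all promoters. The letters TATAAA were present in 19 windows (13.6% of all promoters). They began 27 to 53 bases before the start, except in Lce6a (218 bases) and Lce3e (243 bases). Sprr2a1, Sprr2a2 and Sprr2a3 held none of these 3 motifs. Sprr2k held all 3, and its difference with papain did not pass the test on either diet.

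The remaining 7 motifs gave counts on both sides of their genome shares. GCGTG, the core letters bound by AhR with its partner, was present in 3 windows (Sprr2f, Sprr2i and Lce1c) and in 32.4% of all promoters. CACCC (KLF factors) was present in 20 windows and 57.5% of promoters, GGGNNNNNCC (NF-kB) in 22 and 50.8%, TTNCNNAA (C/EBP) in 27 and 40.7%, and TTCNNNGAA (STAT) in 4 and 8.3%. The IRF motif, present in 3.44% of promoters, and CCGGAAG (ETS), present in 8.86%, were in no member's window. Matches of CACCC overlapped an AP-1 match in Sprr1a and an NF-kB match in Lce1c, Lce1j, Lce3f, Rptn and Tchhl1. A match is a match of letters and does not show binding.

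Summed over the 46 members, the level was 519 ± 72.7 CPM (SD, n = 4) in the vehicle group and 1405 ± 373 CPM in the papain group on the I3C diet. On the AhR-poor diet it was 682 ± 181 CPM with vehicle and 1337 ± 304 CPM with papain. Sprr1a and Sprr1b made up 65.3% and 57.1% of the sum in the vehicle groups on the I3C and AhR-poor diets, and 84.4% and 79.0% in the papain groups. The Sprr2 sum was 4.01 ± 1.30 CPM with vehicle and 86.4 ± 30.6 CPM with papain on the I3C diet, and 5.99 ± 1.21 and 58.4 ± 4.94 CPM on the AhR-poor diet. The Lce3 sum was 0.380 CPM with vehicle and 7.81 CPM with papain on the I3C diet, and 0.637 and 5.55 CPM on the AhR-poor diet. The S100-fused genes summed to means of 69.8 CPM with vehicle and 48.3 CPM with papain on the I3C diet, and of 110.3 and 67.7 CPM on the AhR-poor diet, and the libraries overlapped. Sums were not tested. In these bulk libraries, fewer cells of a type and less RNA per cell cannot be told apart.

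**Figure D1:**
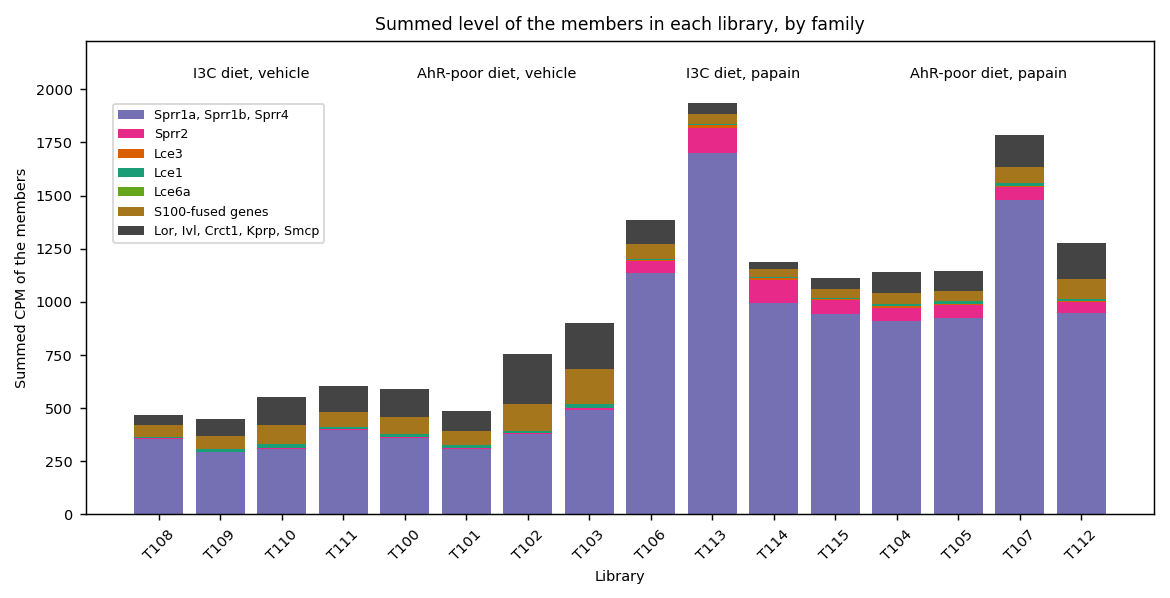
Stacked bars give the summed CPM of the members in each of the 16 libraries (linear axis from 0), with a color for each family and the libraries ordered by group. The 8 vehicle libraries lie between 449 and 898 CPM and the 8 papain libraries between 1112 and 1937 CPM, and the block of Sprr1a, Sprr1b and Sprr4 is the tallest in every bar.

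Per kilobase of exon, the order of levels was led by Sprr1a and Sprr1b in all groups. In the I3C vehicle group Sprr1b was at 219 ± 45.3 and Sprr1a at 192 ± 37.5 CPM per kb, a difference within their SDs. Lor, the major envelope protein of the outer layers, followed at 37.5 ± 17, Ivl at 10.4 ± 2.63, Crct1 at 7.69 ± 2.87 and Tchh at 4.07 ± 0.924 CPM per kb. With papain on the I3C diet Sprr2h took the third place at 42.6 ± 26 CPM per kb, and its SD overlapped that of the next genes, Sprr2d (19.8 ± 18.4) and Lor (19.1 ± 13.6). On the AhR-poor diet with papain, Lor (44 ± 17.8) and Crct1 (27.1 ± 6.37) stayed above Sprr2h (18.8 ± 4.99 CPM per kb).

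To ask how members responded to papain, each was compared with vehicle within a diet. A member was called when its adjusted p was below 0.01 and its level differed over 2-fold. On the I3C diet 16 of 46 members were called higher and 0 lower, where 3.69% of all tested genes were called higher and 5.29% lower. The AhR-poor diet likewise gave 16 called higher and 0 lower, where the shares over all genes were 6.04% and 2.42%. Of each list of 16, 15 (93.8%) were on both. By edgeR, Sprr2j-ps was called on the I3C diet alone and Sprr4 on the AhR-poor diet alone. DESeq2 called both genes on both diets, and Crct1 as well, among 18 members called higher on each diet. The shares over all genes are those of edgeR, and none was computed for DESeq2 in any comparison. At an adjusted p below 0.05 at any fold, the I3C diet gave 18 members higher and 4 lower (16.9% and 18.4% of all genes). The AhR-poor diet gave 18 and 3 (17.7% and 15.7%). The median log2 fold change over the members was -0.05 on the I3C diet and 0.50 on the AhR-poor diet (0.39 with members near 0 counts held at their bound against 3 counts per library), beside -0.04 and 0.00 over all genes. The counts of 0 lower calls are those of edgeR: at an unadjusted p below 0.05, 7 members were lower on the I3C diet and 5 on the AhR-poor diet, and DESeq2 called 0 and 1 (Rptn). Of all genes, 22.9% and 20.3% were lower at that unadjusted p, so these counts were no more than the share over all genes gives. At the same p 19 members were higher on each diet, where the shares of all genes were 20.4% and 21.6%. Papain and vehicle libraries did not overlap for 17 members higher and 2 lower on the I3C diet (16.2% and 17.3% of all genes), and for 18 and 3 on the AhR-poor diet (17% and 16%). The 2 lower on the I3C diet were Smcp and Tchhl1, both near the detection limit, with Tchhl1 at 3 counts or fewer in every papain library there. Smcp, which encodes a sperm mitochondrial protein and is among the 4 on the I3C diet, was at 3 counts or fewer in every library compared and is given no fold. The members called by edgeR came from 3 families: Sprr2, the other Sprr genes and Lce3. Where a pair of changes with papain is given together, that of the I3C diet comes first. Values of single libraries stand in the order T108, T109, T110 and T111 (I3C vehicle), T106, T113, T114 and T115 (I3C papain), T100 to T103 (AhR-poor vehicle), and T104, T105, T107 and T112 (AhR-poor papain).

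Markers of other cell types moved with papain. Of 7 neutrophil genes, 2 were called higher with papain on the I3C diet and 6 on the AhR-poor diet, with median log2 fold changes of 3.24 and 4.89. The sum of the 7 changed less than these medians, so it does not show the typical change of these genes. Their sum was 112.9 to 164 CPM and 116 to 167 CPM in the I3C and AhR-poor vehicle groups, and 175 to 195 CPM and 193 to 511 CPM in the papain groups, with Ly6g at 0 in all groups but the AhR-poor papain group. All 8 dermal fibroblast genes were called higher with papain on the AhR-poor diet, with a median log2 fold change of 1.94, and their sum was 96.6 to 173 CPM with vehicle and 259 to 648 CPM with papain. On the I3C diet 0 of the 8 were called higher by edgeR and 1 lower, with a median of -0.24, and the sum was 9.55 to 13.5 CPM with vehicle and 2.28 to 11.6 CPM with papain. Of 6 endothelial genes, edgeR called 1 higher with papain on the AhR-poor diet and 0 on the I3C diet. Their part in the members' response to papain was not tested.

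Sprr1a, an SPRR protein cross-linked into the envelope, was at 195, 139, 126 and 162 CPM in the 4 I3C vehicle libraries and at 659.7, 928, 546 and 532 CPM in the I3C papain libraries. Under the AhR-poor diet its level was 182, 141, 167 and 182 CPM with vehicle and 567, 521, 859 and 549 CPM with papain. All papain libraries were above all vehicle libraries on each diet, and T113 and T107 were the highest of their groups. The log2 fold change with papain was 2.1 (SE 0.20, adjusted p = 9.5e-07) on the I3C diet and 1.89 (SE 0.20, adjusted p = 4.8e-06) on the AhR-poor diet. The exact permutation p of 4 libraries against 4 was 0.0286 for each diet, the smallest such a design can give.

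Sprr1b, its close relative, was at 159, 153, 179.8 and 236 CPM with vehicle and 473, 770.3, 447 and 409 CPM with papain on the I3C diet. With the AhR-poor diet, the values were 175, 167, 209 and 309 CPM with vehicle and 334, 402, 616 and 394 CPM with papain. The groups did not overlap on either diet, although vehicle library T103 at 309 CPM was close to papain library T104 at 334 CPM. Sprr1b rose by a log2 fold change of 1.53 (SE 0.26, adjusted p = 3.1e-04) on the I3C diet and 1.02 (SE 0.26, adjusted p = 0.00668) on the AhR-poor diet. The call on the AhR-poor diet was lost under 10 settings, among them 8 of the 16 fits that left out 1 library, with adjusted p up to 0.0265.

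Sprr4 was at 0.689, 0.969, 1.09 and 0.66 CPM with vehicle and 2.7, 2.5, 1.88 and 1.44 CPM with papain on the I3C diet. In mice on the AhR-poor diet it was at 1.31, 0.529, 2.45 and 1.1 CPM with vehicle and 6.92, 2.71, 4.2 and 3.64 CPM with papain. The groups did not overlap on either diet, and T104 was the highest library. For Sprr4 the log2 fold change was 1.31 (SE 0.39, adjusted p = 0.0121) on the I3C diet, over 2-fold but short of the call, and 1.69 (SE 0.37, adjusted p = 0.00154) on the AhR-poor diet, a call that was lost when only these 8 libraries were fitted (adjusted p = 0.0141).

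**Figure D2:**
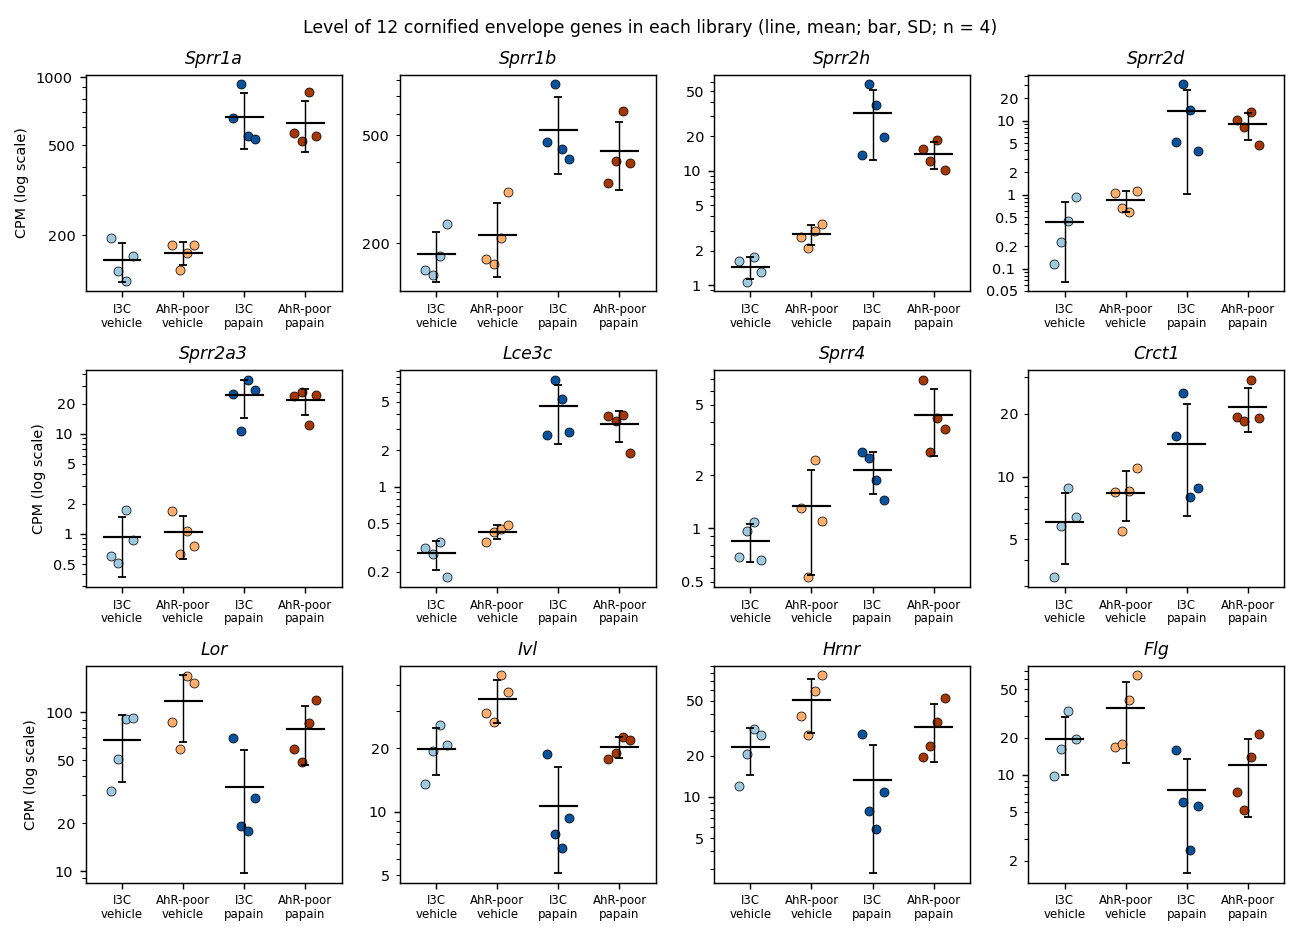
Level of 12 members in each library, in CPM on a log axis, for the 4 groups, with 1 point per library, a line at the mean and a bar for the SD (n = 4). On each diet the papain points of Sprr1a, Sprr1b, Sprr2h, Sprr2d, Sprr2a3, Lce3c and Sprr4 lie above all vehicle points, while those of Lor, Hrnr and Flg overlap the vehicle points.

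The Sprr2 family encodes short envelope precursors, and 10 of the 11 Sprr2 genes were called higher with papain on the I3C diet and 9 on the AhR-poor diet. At an adjusted p below 0.05, 10 were higher on each diet. The symbol of Sprr2j-ps marks a pseudogene, although the annotation used lists it as protein-coding. The median log2 fold change over the 11 was 4.06 and 3.40. Sprr2h, the Sprr2 gene with the highest level per length, was at 1.64, 1.07, 1.77 and 1.29 CPM with vehicle and 13.9, 57.1, 37.4 and 19.6 CPM with papain on the I3C diet. In the AhR-poor groups it was at 2.62, 2.12, 2.99 and 3.43 CPM with vehicle and 15.6, 12.3, 18.7 and 10.1 CPM with papain. Vehicle and papain libraries did not overlap, and papain libraries on the I3C diet spread more widely (13.9 to 57.1) than those on the AhR-poor diet (10.1 to 18.7). The log2 fold change was 4.47 (SE 0.42, adjusted p = 1.4e-06) on the I3C diet and 2.34 (SE 0.39, adjusted p = 2.9e-04) on the AhR-poor diet.

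Sprr2d rose from 0.115, 0.229, 0.435 and 0.93 CPM with vehicle to 5.09, 31, 14 and 3.93 CPM with papain on the I3C diet, a log2 fold change of 4.99 (SE 0.75, adjusted p = 1.3e-04). The AhR-poor groups had Sprr2d at 1.06, 0.662, 0.593 and 1.13 CPM with vehicle and 10.3, 8.23, 13.2 and 4.68 CPM with papain, a change of 3.4 (SE 0.68, adjusted p = 0.00149). Library T113 was the highest with papain on the I3C diet and T107 on the AhR-poor diet. Sprr2i, whose upstream sequence holds the same 3 motifs, was at 0, 0.0255, 0.0544 and 0.18 CPM with vehicle and 3.09, 5.45, 4.14 and 1.62 CPM with papain on the I3C diet, and at 0.109, 0.212, 0.247 and 0.0536 CPM with vehicle and 4.6, 1.23, 5.67 and 0.925 CPM with papain on the AhR-poor diet. Its groups did not overlap, and its log2 fold change of 5.75 (SE 0.82, adjusted p = 4.8e-05) on the I3C diet was the largest of the Sprr2 genes there. Its change on the AhR-poor diet was 4.25 (SE 0.71, adjusted p = 2.7e-04).

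Sprr2a3 was at 0.603, 0.51, 1.74 and 0.87 CPM with vehicle and 24.7, 10.8, 34.5 and 27.6 CPM with papain on the I3C diet, and at 1.69, 0.635, 1.06 and 0.751 CPM with vehicle and 23.6, 26.1, 12.3 and 24.3 CPM with papain on the AhR-poor diet. Vehicle and papain libraries did not overlap. Its log2 fold change was 4.71 (SE 0.46, adjusted p = 2.1e-06) on the I3C diet and 4.39 (SE 0.45, adjusted p = 6.1e-06) on the AhR-poor diet. Sprr2a1 rose by 4.32 and 3.77 and Sprr2a2 by 4.06 and 4.58 on the log2 scale, but 92.5% and 92.8% of the 100-base windows of their transcripts are found in another gene, as are 36.2% for Sprr2a3, so values of the Sprr2a genes are uncertain as to which copy they belong to. The remaining Sprr2 genes ranged between 2.67 (Sprr2f) and 3.95 (Sprr2j-ps and Sprr2e) among those called on the I3C diet. Sprr2j-ps changed by 2.69 (SE 0.76, adjusted p = 0.0106) on the AhR-poor diet, just short of the call, and Sprr2k by 1.25 (SE 0.55, adjusted p = 0.0898) and 0.84 (SE 0.52, adjusted p = 0.231) on the I3C and AhR-poor diets.

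The Sprr2a genes ranked the papain libraries differently from the Sprr1 and most other Sprr2 genes. On the I3C diet library T113 was the highest for Sprr1a, Sprr1b, all 4 called Lce3 genes and 5 of 7 other called Sprr2 genes, and the lowest for all 3 Sprr2a genes, whose sum was 13.6 CPM there and 29.2 to 41.1 CPM in the other 3 libraries. Library T107 of the AhR-poor diet was the highest for Sprr1a, Sprr1b and 5 of the same 7 Sprr2 genes, and the lowest for all 3 Sprr2a genes, with a sum of 14.7 CPM against 26.6 to 29.6 CPM. The Lce3 genes did not share this order on the AhR-poor diet, where T107 was the highest for 1 of the 4 and T104 for 2, at Lce3 sums of 6.1 CPM in T107, 6.6 CPM in T104, 6.22 CPM in T105 and 3.1 CPM in T112. These orders were seen in the data and not tested.

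Among the Lce3 genes, small envelope proteins, 4 of 5 rose on both diets and Lce3b was at or under 3 counts in the vehicle and papain libraries. Lce3c was at 0.316, 0.28, 0.354 and 0.18 CPM with vehicle and 2.65, 7.6, 5.28 and 2.83 CPM with papain on the I3C diet. The AhR-poor groups had Lce3c at 0.354, 0.424, 0.445 and 0.483 CPM with vehicle and 3.84, 3.49, 3.94 and 1.9 CPM with papain. Vehicle and papain libraries did not overlap, with T113 highest. The log2 fold change was 3.99 (SE 0.37, adjusted p = 1.1e-07) on the I3C diet and 2.94 (SE 0.35, adjusted p = 3.8e-06) on the AhR-poor diet.

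Lce3d, Lce3e and Lce3f were near the detection limit with vehicle, at no more than 3, 2 and 1 counts per library on the I3C diet and no more than 6, 2 and 4 on the AhR-poor diet. Summed over a group, the ratio of papain to vehicle CPM on the I3C diet was 36.6 for Lce3d (95% exact interval 17.5 to 91.9), 9.58 for Lce3e (3.84 to 30.8) and 63.0 for Lce3f (17.1 to 526). The ratio on the AhR-poor diet was 9.49 for Lce3d (5.97 to 15.9), 12.3 for Lce3e (3.88 to 62.1) and 15.2 for Lce3f (7.45 to 35.9). These intervals cover counting error only. The fitted changes passed the test with adjusted p of 6.5e-06, 0.00166 and 1.0e-05 on the I3C diet and 2.8e-04, 0.00326 and 1.3e-04 on the AhR-poor diet. For Lce3e the AhR-poor call was lost without T101, T103 or T105, with adjusted p up to 0.0226. Of the 100-base windows of these transcripts, 24.1% to 43% (Lce3c to Lce3f) are shared with another gene.

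**Figure D3:**
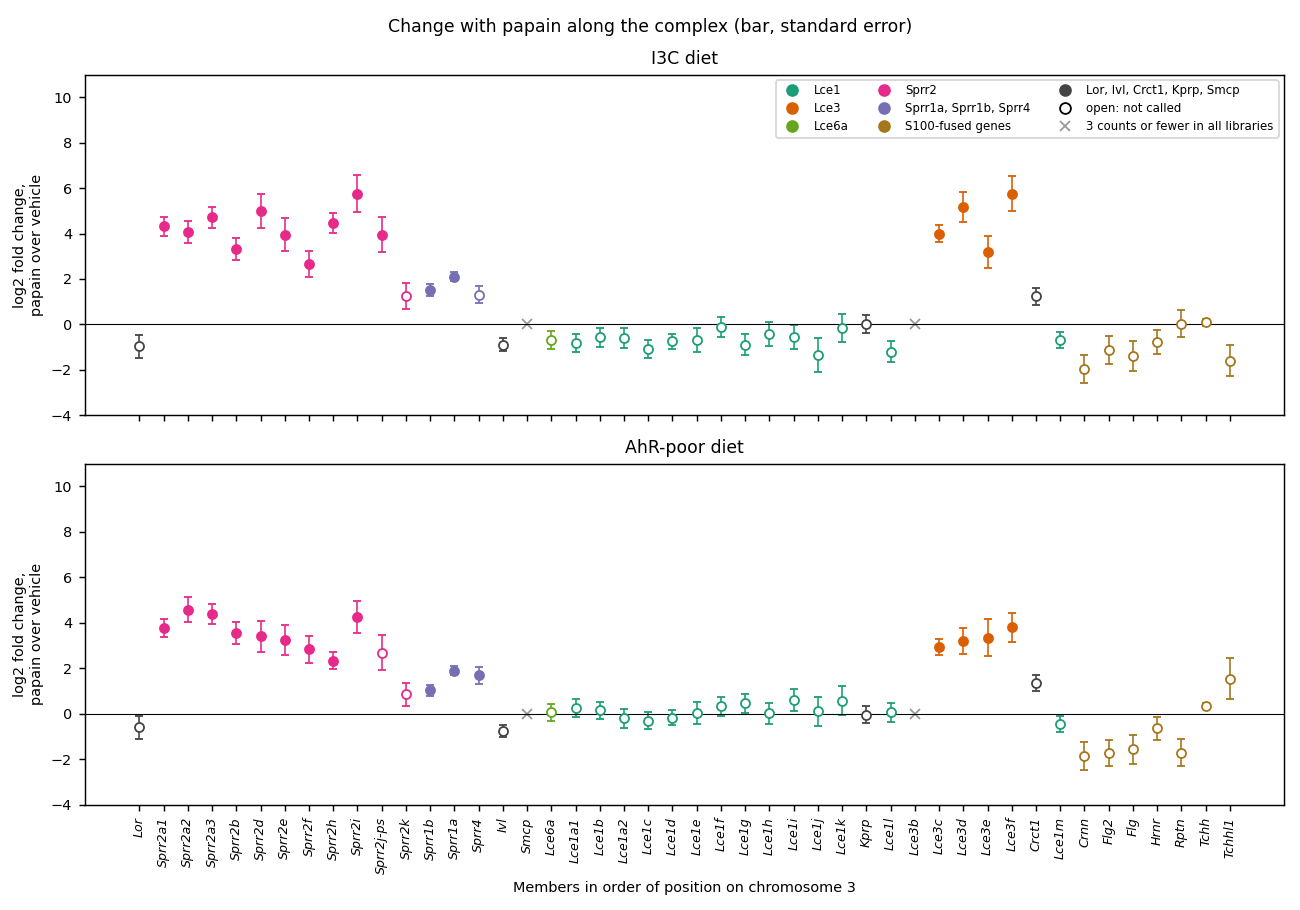
Log2 fold change of papain over vehicle for the members in their order along chromosome 3, on the I3C diet (top) and the AhR-poor diet (bottom), with bars for the standard error, filled points for called members, open points for members not called and crosses for members with 3 counts or fewer in all libraries compared. The 16 filled points of each panel are above 0 and belong to the Sprr genes and Lce3c to Lce3f, and the Lce1 points are open.

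The genes of the late envelope were not called in either direction. Lor, loricrin, was at 31.8, 51, 91 and 92.8 CPM with vehicle and 69.4, 19.4, 18 and 29 CPM with papain on the I3C diet, and at 87.4, 59.1, 171 and 154 CPM with vehicle and 59.1, 48.8, 85.7 and 119.6 CPM with papain on the AhR-poor diet. The vehicle and papain groups overlapped on both diets. Papain gave Lor a log2 fold change of -0.97 (SE 0.51, adjusted p = 0.17) on the I3C diet and -0.59 (SE 0.51, adjusted p = 0.418) on the AhR-poor diet, with 95% intervals of -2.08 to 0.14 and -1.68 to 0.50, which hold both 0 and a 2-fold loss.

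Ivl, the early scaffold protein involucrin, was at 13.6, 19.5, 25.9 and 20.7 CPM with vehicle and 18.8, 7.86, 6.71 and 9.33 CPM with papain on the I3C diet, and at 29.5, 26.7, 44.3 and 36.8 CPM with vehicle and 17.8, 18.9, 22.5 and 21.9 CPM with papain on the AhR-poor diet. Papain library T106 overlapped the I3C vehicle range, and the groups did not overlap on the AhR-poor diet. The log2 fold change was -0.89 (SE 0.29, adjusted p = 0.0249) and -0.76 (SE 0.28, adjusted p = 0.0508). Ivl thus fell on the I3C diet at an adjusted p below 0.05 and missed it on the AhR-poor diet.

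Among the S100-fused genes, Flg, encoding filaggrin, was at 9.88, 16.4, 33 and 19.7 CPM with vehicle and 16.1, 5.96, 2.43 and 5.6 CPM with papain on the I3C diet, and at 16.9, 17.8, 40.9 and 64.6 CPM with vehicle and 7.24, 5.16, 13.9 and 21.7 CPM with papain on the AhR-poor diet. The groups overlapped, and the change was -1.38 (SE 0.65, adjusted p = 0.119) and -1.56 (SE 0.64, adjusted p = 0.0794). Flg2, a filaggrin relative, was at 5.58, 2.91, 5.71 and 5.44 CPM with vehicle and 0.96, 0.797, 2.47 and 1.88 CPM with papain on the AhR-poor diet, did not overlap and fell, with a log2 fold change of -1.73 (SE 0.56, adjusted p = 0.0257). On the I3C diet it was at 0.689, 0.79, 2.15 and 1.86 CPM with vehicle and 1.63, 0.257, 0.171 and 0.373 CPM with papain, overlapped and changed by -1.13 (SE 0.61, adjusted p = 0.176).

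Crnn, cornulin, fell on both diets at an adjusted p below 0.05, with log2 fold changes of -1.96 (SE 0.60, adjusted p = 0.0149) and -1.85 (SE 0.62, adjusted p = 0.0274), from no more than 0.435 CPM with vehicle to no more than 0.192 CPM with papain. Its groups overlapped on the I3C diet and did not on the AhR-poor diet. Rptn, repetin, fell on the AhR-poor diet with a log2 fold change of -1.72 (SE 0.60, adjusted p = 0.0391) and was 0.03 (SE 0.60, adjusted p = 0.991) on the I3C diet, where 1 papain library (T113) stood at 3.56 CPM. The Rptn groups overlapped on both diets. Hrnr, hornerin, changed by -0.78 (SE 0.52, adjusted p = 0.278) and -0.64 (SE 0.50, adjusted p = 0.372) with overlapping groups. Tchh, trichohyalin of the hair follicle and tongue, changed by 0.08 (SE 0.13, adjusted p = 0.684) and 0.33 (SE 0.14, adjusted p = 0.0664). Flg, Flg2 and Hrnr are built of repeats, and 71.3%, 55.5% and 67.3% of their 100-base windows recur in their own transcript.

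The 14 Lce1 genes, envelope proteins of the outermost layers, were not called on either diet. All 14 were below 0 on the I3C diet with a median log2 fold change of -0.68, and 1 of them, Lce1c, fell at an adjusted p below 0.05, with a change of -1.09 (SE 0.40, adjusted p = 0.0386). On the AhR-poor diet 10 were above 0 and 4 below, with a median of 0.08. Over all 22155 genes, 11826 were below 0 on the I3C diet and 11155 on the AhR-poor diet. These signs were not tested. Lce1c was at 0.603, 1.78, 2.72 and 1.14 CPM with vehicle and 0.828, 0.481, 0.571 and 1.02 CPM with papain on the I3C diet, with overlap. Lce1a1, at the highest level per length of its family in the I3C vehicle group, was -0.82 (SE 0.40, adjusted p = 0.13) on the I3C diet and 0.26 (SE 0.38, adjusted p = 0.662) on the AhR-poor diet. Lce6a was -0.67 and 0.05, neither passing the test, and Kprp 0.01 and -0.04.

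Crct1 was at 3.3, 5.81, 8.84 and 6.39 CPM with vehicle and 15.6, 25, 7.99 and 8.8 CPM with papain on the I3C diet, and at 8.47, 5.51, 8.55 and 11 CPM with vehicle and 19.3, 18.5, 29 and 19 CPM with papain on the AhR-poor diet. The I3C groups overlapped and the AhR-poor groups did not. Crct1 had log2 fold changes of 1.23 (SE 0.37, adjusted p = 0.0169) and 1.35 (SE 0.36, adjusted p = 0.0102), higher at an adjusted p below 0.05. It was short of a call by edgeR on both diets, while DESeq2 called it on both.

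To ask whether diet changed the members, the AhR-poor diet was compared with the I3C diet within each treatment. With vehicle, edgeR called 0 of 46 members (1.59% of all genes were called higher and 0% lower), and at an adjusted p below 0.05 only Tchh was lower, where the shares over all genes were 2.98% higher and 0.0993% lower. With papain, edgeR called 0 members (7.15% higher and 0.0993% lower), and 3 passed at an adjusted p below 0.05 (12.3% higher and 8.36% lower): Ivl and Sprr4 higher and Sprr2h lower on the AhR-poor diet. The median log2 fold change over the members was 0.42 with vehicle and 0.55 with papain (0.24 and 0.37 with such bounds), beside -0.01 and 0.01 over all genes. At an unadjusted p below 0.05, the vehicle comparison gave 5 members higher and 2 lower, where 8.94% of all genes were higher and 3.54% lower. The papain comparison gave 13 and 2, where the shares were 17.5% and 14.5%. DESeq2 called 0 members in both.

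Markers of other cell types moved with diet as well. All 8 dermal fibroblast genes were called higher on the AhR-poor diet with either treatment. The ranges of their summed level, given above for each group, did not overlap between diets, and no marker was at 0 in a group. After papain, 3 of the 7 neutrophil genes were also called higher on the AhR-poor diet. Their part in the members' differences between diets was not tested.

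Tchh was at 17.8, 14.2, 19.4 and 13.8 CPM on the AhR-poor diet and at 31.8, 21.6, 20.9 and 20.7 CPM on the I3C diet with vehicle. The groups did not overlap, and the log2 fold change was -0.54 (SE 0.14, adjusted p = 0.0308). With papain the values were 21.5, 18.3, 22.2 and 20.2 and 22.7, 26.7, 26.8 and 24.4 CPM, and the change was -0.29 (SE 0.13, adjusted p = 0.143). The papain groups did not overlap either. In all, the diets did not overlap with vehicle for 7 members, 5 of them higher and 2 lower with the AhR-poor diet (6.45% and 1.67% of all genes), and with papain for 6 higher and 1 lower (12.5% and 12.3%). Beside Tchh, those with vehicle were Ivl at 0.78 (SE 0.28, adjusted p = 0.212), Flg2 at 1.84 (SE 0.56, adjusted p = 0.11), Sprr2h at 0.95 (SE 0.42, adjusted p = 0.369), Lce3c, Lce3d and Tchhl1, none of which passed. With papain they were Sprr4 and 5 Lce1 genes, namely Lce1a1, Lce1b, Lce1g, Lce1j and Lce1l. Of the 6 beside Tchh with vehicle, Tchhl1 was the lower one on the AhR-poor diet, at no more than 0.0272 CPM there.

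With papain, Ivl was at 17.8, 18.9, 22.5 and 21.9 CPM on the AhR-poor diet and 18.8, 7.86, 6.71 and 9.33 CPM on the I3C diet. Library T106 of the I3C diet overlapped the AhR-poor group, and the log2 fold change was 0.92 (SE 0.29, adjusted p = 0.0357). Sprr4, at 6.92, 2.71, 4.2 and 3.64 CPM and 2.7, 2.5, 1.88 and 1.44 CPM, did not overlap, and its change was 1.03 (SE 0.36, adjusted p = 0.0478). Sprr2h was lower on the AhR-poor diet, -1.18 (SE 0.35, adjusted p = 0.0293), with T106 at 13.9 CPM inside the AhR-poor range. Sprr1a differed by -0.10 with a 95% interval of -0.51 to 0.32. Lor, Hrnr and Flg2 were 1.2 (SE 0.51, adjusted p = 0.125), 1.27 (SE 0.52, adjusted p = 0.106) and 1.24 (SE 0.61, adjusted p = 0.179). The log2 fold changes of the Lce1 genes were above 0 in 14 of 14, with a median of 0.96, and none passed (smallest adjusted p = 0.0551). Over all genes, 11301 of 22155 were above 0 and 10838 below. Those of the Sprr2 genes were below 0 in 10 of 11, with a median of -0.22. Among these, Sprr2a3, Sprr2b, Sprr2d, Sprr2e, Sprr2f and Sprr2i changed sign in some fits that left out 1 library. The genes of a family are related copies and not independent, so these counts of signs were not tested.

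**Figure D4:**
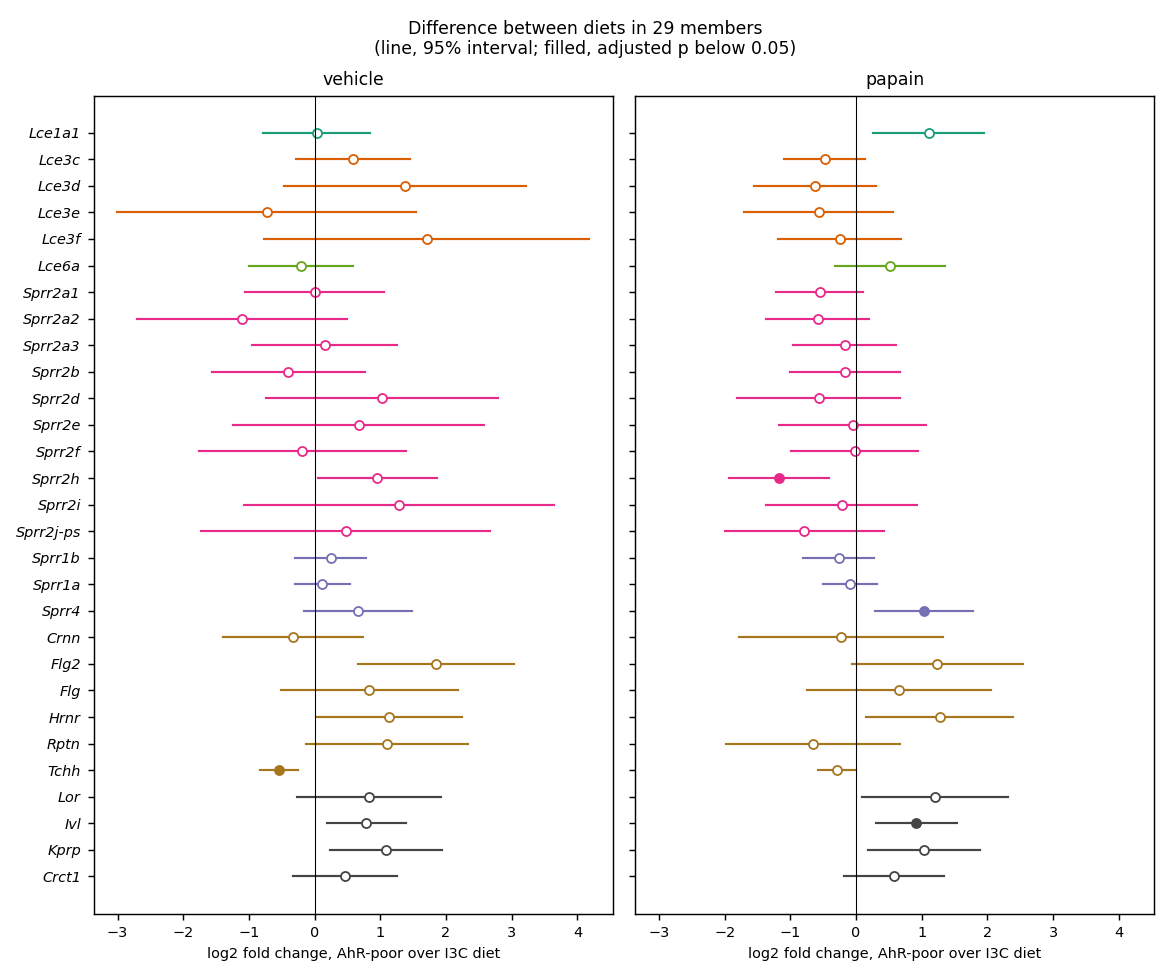
Log2 fold change of the AhR-poor over the I3C diet for 29 named members, with vehicle (left) and with papain (right), with lines for the 95% interval and filled points for an adjusted p below 0.05. Tchh is the filled point with vehicle, and Sprr2h, Sprr4 and Ivl are the filled points with papain, Sprr2h to the left of 0 and the others to its right.

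Library T106 of the I3C papain group stood apart for a chosen set of 6 structural genes outside the called families. It was the highest of its group for Lor, Ivl, Flg, Flg2, Hrnr and Kprp (6 of 6), and T114 was the lowest for all 6, with a ratio of T106 to T114 of 3.86 for Lor, 2.81 for Ivl, 6.62 for Flg, 9.53 for Flg2, 4.98 for Hrnr and 3.73 for Kprp. The other named structural genes not called by edgeR did not share this order in the I3C papain group. Tchh was lowest in T106, at 22.7 CPM, and Crct1 (25 CPM), Rptn (3.56 CPM) and Crnn (0.192 CPM) were highest in T113. Among the 6 chosen genes, T108 was lowest for 6 of 6 and T110 highest for 5 in the I3C vehicle group. In the AhR-poor vehicle group T101 was lowest for 5 of 6. Without T106, 3 members were called higher on the AhR-poor diet with papain, namely Ivl (log2 fold change 1.35, adjusted p = 2.7e-04), Flg2 (2.45, adjusted p = 0.00419) and Hrnr (1.99, adjusted p = 0.00817), and Sprr2h was called lower (-1.42, adjusted p = 0.00319). In that fit 8.1% of all genes were called higher and 0.155% lower, so 3 of 46 members higher was not above the share over all genes. The same fit called Ivl (log2 fold change -1.33, adjusted p = 1.4e-04) and Flg2 (-2.34, adjusted p = 0.00317) lower with papain on the I3C diet and 16 members higher, where 6.06% of all genes were called lower and 3.82% higher. T106 was the highest of its group for Ivl, Flg2 and Hrnr and the lowest for Sprr2h. Leaving it out therefore moves the I3C papain means of these genes toward these calls, which are no independent support for them.

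To ask whether the response to papain differed by diet, the interaction of diet and papain was tested. By edgeR 0 of 46 members were called and 0 passed at an adjusted p below 0.05, beside 0.0181% and 0.329% of all genes, and 2 were above 0 and 1 below at an unadjusted p below 0.05 (7.41% and 6.07% of all genes). DESeq2 called 1, Sprr2h (log2 difference -2.12, adjusted p = 0.00974). Sprr2h, whose change with papain was larger on the I3C diet, had the smallest p among the members, at -2.13 (SE 0.55, adjusted p = 0.125). The pair above 0 were Tchhl1 at 3.13 (SE 1.15, adjusted p = 0.259), which had at most 11 counts in any library, and Lce1g at 1.34 (SE 0.62, adjusted p = 0.356). The response of Sprr1a differed by -0.21 (95% interval -0.80 to 0.38). An adjusted p above the threshold does not show that the responses were alike.

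Other genes of the envelope were compared in the same way. A list of 24 genes of envelope assembly outside the complex held transglutaminases, periplakin and envoplakin, and lipoxygenases, among others. With papain on the I3C diet 1 was called higher and 1 lower, where the shares over all genes were 3.69% and 5.29%. On the AhR-poor diet 0 were called higher and 1 lower (6.04% and 2.42% of all genes). Tgm1, the transglutaminase that cross-links the envelope in keratinocytes, rose with papain on the I3C diet, 1.46 (SE 0.24, adjusted p = 2.3e-04), and was 0.57 (SE 0.24, adjusted p = 0.0804) on the AhR-poor diet. Tgm3, another transglutaminase, fell on both, -1.12 (SE 0.13, adjusted p = 2.5e-06) and -1.09 (SE 0.13, adjusted p = 5.9e-06). By edgeR 0 of 22 differentiation regulators (such as Klf4, Grhl3, Trp63 and Fosl1) were called in any comparison. At an adjusted p below 0.05 with papain, the I3C diet gave 2 higher and 8 lower (16.9% and 18.4% of all genes). The AhR-poor diet gave 3 and 4 (17.7% and 15.7% of all genes). Of 5 AhR target genes, Nqo1 rose with papain on both diets, with log2 fold changes of 2.32 (SE 0.22, adjusted p = 4.9e-07) and 2.35 (SE 0.22, adjusted p = 9.5e-07). Cyp1a1 fell with papain on the I3C diet, from a mean of 1.49 to 0.235 CPM, a log2 fold change of -2.62 (SE 0.52, adjusted p = 6.7e-04). Between diets with vehicle 0 of the 5 were called by edgeR, Cyp1b1 was higher on the AhR-poor diet at 1.02 (SE 0.27, adjusted p = 0.0497), Cyp1a1 was -0.30 (SE 0.44, adjusted p = 0.879), and the median over the 5 was -0.28. With papain the median was 0.47, and Cyp1a1 and Cyp1b1 were called higher on the AhR-poor diet, by log2 fold changes of 2.79 (SE 0.52, adjusted p = 9.2e-04) and 1.48 (SE 0.29, adjusted p = 0.0011).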

How the data were processed

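Footpad epidermal cells of 16 mice were sequenced as 100-nt paired-end stranded mRNA libraries after removal of dead cells. The authors aligned reads to mm10 with STAR and deposited raw counts per gene, the only unit used here. The counting tool, annotation and strand setting are not given in the sources used here. Reads shared by near-identical copies could be split or dropped, so the share of 100-base windows found in another gene is given beside such members. Of 50600 IDs, 50376 matched GENCODE M21 on GRCm38, which gave symbols, positions and exon lengths.

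Groups were taken from the GEO labels. The 22155 genes that reached 10 counts over the series were fitted across all 16 libraries with 1 mean per group in edgeR 4.0.16 (R 4.3.3; TMM factors 0.937 to 1.07, robust quasi-likelihood F test, two-sided), and p-values were adjusted by Benjamini-Hochberg over all 22155 genes. Members were called where the adjusted p was below 0.01 and the change exceeded 1 on the log2 scale in size, the thresholds of the study's methods. CPM are counts per 1000000 of the TMM-scaled library. The two-sided exact permutation test on log2 CPM compares 4 libraries with 4. The fit was tested on simulated data with changes only in genes of at least 10 counts per library on average. That setting does not cover members near 0 counts with vehicle. Replicates of a group differed by more than sampling noise (chi-square per degree of freedom of at least 9.43), so each library was counted once. Intervals from counts cover counting error only.

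Named members are a fixed set of structural and SPRR1 genes, every called member, and the member at the highest level per length in each subfamily. The members and lists were chosen with earlier results of these data known. Alternatives were DESeq2 1.42.0, other normalization, filters and thresholds, only the 8 libraries compared, and leaving out each library.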

Additional observations from a re-analysis of the deposited data

Results flagged for a closer look

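In 6 of the 116 sets of 4 libraries checked, where chance gives about 1 in 20, a library stood far from the other 3 of its group. Crct1 in the AhR-poor papain group was at 29 CPM in T107 and at 18.5 to 19.3 CPM in the others, and Sprr1a was at 859 CPM in T107 and at 521 to 567 CPM in the others. Flg2 in the AhR-poor vehicle group was at 2.91 CPM in T101 and at 5.44 to 5.71 CPM in the others. In the I3C papain group Flg2 was at 1.63 CPM in T106 and at 0.171 to 0.373 CPM in the others, and Rptn was at 3.56 CPM in T113 and at 0.547 to 1.05 CPM in the others. Tchh in the I3C vehicle group was at 31.8 CPM in T108 and at 20.7 to 21.6 CPM in the others.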

How the results depend on the processing

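No paired analysis was possible because the groups share no replicate numbers. Of the 16 calls with papain on the I3C diet, 16 were kept in every setting that tested the member, and of the 16 on the AhR-poor diet 13 were, the exceptions being Sprr1b, Sprr4 and Lce3e. Requiring at least 10 counts in every library left 20 members to test and 5 calls higher on the I3C diet and 6 on the AhR-poor diet. Leaving out 1 library gave 16 to 17 calls higher and 0 to 2 lower with papain on the I3C diet (Lce1c without T108, Crnn without T109 or T113, Ivl and Flg2 without T106), and 14 to 18 higher and 0 to 1 lower on the AhR-poor diet (Flg2 without T106). Between diets it gave 0 with vehicle, and 0 to 3 higher and 0 to 1 lower with papain, where the 3 and the 1 came without T106. At an adjusted p below 0.05 with the 2-fold minimum, 3 members were lower with papain on the I3C diet (Smcp, Lce1c and Crnn) and 3 on the AhR-poor diet (Crnn, Flg2 and Rptn). Smcp was at 3 counts or fewer in every library, so its fold is not reliable. Between diets with papain 1 was higher (Sprr4) and 1 lower (Sprr2h). The share over all genes at this threshold was not computed. For the other settings of this paragraph such a share was computed only for some comparisons without T106. The remaining counts therefore have no background beside them. With DESeq2, 18 members were called higher with papain on each diet. It called 1 member lower with papain on the AhR-poor diet (Rptn) and 1 in the interaction (Sprr2h). With only the 8 libraries compared, 1 was lower with papain on the AhR-poor diet (Flg2) and 1 higher between diets with papain (Lce1a1). The cause of these changes was not tested. With vehicle, the diet comparison called 0 members under every setting. Depth limits Lce3b, Lce3e, Smcp, Crnn and Tchhl1, which had few counts per library.

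Members that were not called in a comparison and lay near 0 changed sign under some settings. With library size in place of TMM factors, the log2 fold change was -0.025 for Kprp and -0.012 for Rptn (papain, I3C diet), 0.040 for Sprr2a1 (diets with vehicle), 0.054 for Sprr2e, 0.084 for Sprr2f and 0.0057 for Sprr1a (diets with papain), and 0.0026 for Kprp (interaction). Others changed sign when a library was left out, with the lowest and highest log2 values over the 16 such fits given here. For papain against vehicle on the I3C diet these were Kprp -0.44 to 0.47 and Rptn -0.80 to 0.32. For papain against vehicle on the AhR-poor diet these were Lce6a -0.15 to 0.44 and Kprp -0.20 to 0.20. For the diets with vehicle these were Sprr2a1 -0.31 to 0.51, Sprr2a3 -0.19 to 0.64, Sprr2f -0.77 to 0.46, Sprr2j-ps -0.0525 to 1.89 and Lce1a1 -0.23 to 0.53. For the diets with papain these were Sprr2a3 -0.41 to 0.0443, Sprr2b -0.42 to 0.34, Sprr2d -0.87 to 0.26, Sprr2e -0.30 to 0.66, Sprr2f -0.30 to 0.0999, Sprr2i -0.66 to 0.0839, Sprr1a -0.29 to 0.12, Lce3f -0.51 to 0.39, Crnn -0.77 to 0.56 and Rptn -1.07 to 0.18. For the interaction these were Sprr2a3 -0.81 to 0.0211, Sprr2b -0.0348 to 0.75, Sprr2f -0.48 to 0.75, Sprr1a -0.40 to 0.0117, Ivl -0.0222 to 0.58, Kprp -0.50 to 0.41, Lce3e -0.43 to 1.07, Crct1 -0.10 to 0.54, Crnn -0.42 to 0.90, Flg2 -0.90 to 0.62, Flg -0.65 to 0.54 and Hrnr -0.19 to 0.86.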

Other observations

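Other cell markers gave the following values. Of 6 basal keratinocyte genes, 1 was lower with papain on each diet by edgeR, Krt15. Of 6 suprabasal genes, 1 was called, Krt9, a keratin of palm and sole, whose level after papain was higher with the AhR-poor diet. Of 6 endothelial genes, edgeR called 6 higher with the AhR-poor diet under either treatment, at a summed level of 0.833 to 2.91 CPM in the I3C vehicle group and 11.5 to 27.6 CPM in the AhR-poor vehicle group. Of 7 hair follicle genes, edgeR called 1 higher with the AhR-poor diet after papain, at sums of 0.970 to 7.33 CPM in the I3C papain group and 1.76 to 47.3 CPM in the AhR-poor papain group. Of 6 Langerhans cell genes, the AhR-poor diet had 4 higher with vehicle and 5 with papain at an adjusted p below 0.05, and 1 was called higher with papain on the I3C diet. Of 6 T cell genes, 1 was called higher with papain on the AhR-poor diet and 1 higher with that diet after papain. Of 6 eccrine gland genes, 1 was called lower with papain on the I3C diet.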
